A study of Mus musculus with 6 samples.

Results

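The 9 genes described here are named for striated and cardiac muscle, and they were measured in whole mouse testes. Myh1 and Myh2 encode fast myosin heavy chains, Mylpf a fast myosin regulatory light chain, Acta1 skeletal alpha-actin, Tnnt3 fast skeletal troponin T, Actn3 the alpha-actinin of fast fibres and Ckm the muscle creatine kinase. Nppa encodes atrial natriuretic peptide and Synpo2l a synaptopodin-like protein of the cardiac and skeletal Z disc. They were taken by name from a table of 14998 genes, and all 9 of the 9 names were found. The names were proposed with the values of these libraries in view, so their differences between the groups are given as a description and carry no test. The 3 control libraries came from males of genotype Lats1flox/flox;Lats2flox/flox, in which loxP sites flank part of both kinase genes. The 3 knockout libraries came from males with those alleles and Amh-cre, a transgene in which the promoter of anti-Müllerian hormone drives Cre recombinase, known to be active in Sertoli cells, the somatic cells that nurse the germ cells. The floxed alleles are therefore common to both groups, and Cre is the labelled difference. LATS1 and LATS2 are kinases of the Hippo pathway. Neither the age of the animals nor whether a library came from 1 animal or a pool is given in the labels, so every p-value below reflects variation among these 6 libraries, part of which may be technical.

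Striated muscle contracts when myosin heads on the thick filament pull on actin in the thin filament. Troponin and tropomyosin on the thin filament set when this happens in response to calcium, alpha-actinin anchors the thin filaments at the Z disc, and creatine kinase keeps ATP available. A testis has smooth-muscle-like peritubular myoid cells around its tubules but no striated muscle of its own, while the cremaster muscle of the body wall lies around it. In the Hippo pathway LATS kinases restrain the coactivators YAP and TAZ, which bind DNA through TEAD factors. TEAD factors also bind the promoters of several muscle genes.

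Values are FPKM, read counts scaled to exon length and library size, as the authors deposited them. Whole reads could be recovered from the steps in the values, and the totals they imply ran from 9490735 to 13620087 reads per library. The testis identity of the tissue was checked with marker genes. Summed over 7 of 8 Sertoli cell markers the level was 252 to 267 FPKM in the controls and 143 to 159 FPKM in the knockouts. Over 6 of 6 Leydig cell markers, it was 660 to 748 against 297 to 339 FPKM. The 4 germ cell markers summed to 140 to 152 against 42.8 to 78.4 FPKM, and 3 of 4 macrophage markers to 13.9 to 15.5 against 133 to 157 FPKM. The series' design text names adrenal glands where the sample labels name testes, and the labels are followed here. Of 9 genes known for the adrenal gland 6 are in the table, Cyp11b1, Cyp21a1, Mc2r, Akr1b7, Pnmt and Chga, summing to 59.5 to 65.9 FPKM in the controls and 51.5 to 62.3 FPKM in the knockouts, while Cyp11b2, Th and Dbh are not listed. Among the 6, Cyp11b1 averaged 4.76 ± 2.87 and 15.9 ± 5.16 FPKM, and Pnmt averaged 19.4 ± 6.77 FPKM in the controls and was listed at 0 in each knockout. None of the measured markers of these 4 testis classes was at 0 in all libraries. That holds for every listed gene, since only genes that reached 1 FPKM in at least 1 library are listed. The part of these marker shifts in the muscle gene values was not tested, and in whole-tissue RNA fewer cells of a type and less RNA per cell cannot be told apart. Lats1 averaged 15.7 ± 0.569 FPKM in the controls and 12.7 ± 0.239 in the knockouts, and Lats2 15.6 ± 1.22 and 18.04 ± 0.210 (SD, n = 3 libraries each, as for every mean below). Such whole-gene levels from the entire organ do not check the deletion in Sertoli cells, since the floxed exons are not named.

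Of the 9 genes, 7 had a lower mean in the knockouts, namely Actn3, Myh1, Myh2, Acta1, Ckm, Tnnt3 and Mylpf. The other 2, Nppa and Synpo2l, had a higher one. In 5 of the 7 lower genes, Actn3, Myh1, Myh2, Ckm and Mylpf, no knockout library reached any control library, and in Acta1 and Tnnt3 the groups overlapped. Both higher genes had groups apart. Among all genes of the table, 38.7% were lower and 35.9% higher without overlap, and since the 9 names were chosen on this contrast nothing is read from their count. All 9 were low or moderate in level. The mean over the 6 libraries ran from 0.783 FPKM for Nppa to 8.37 FPKM for Mylpf, and 48.7% of the table's genes had a lower mean than Mylpf. A filter of 1 FPKM on that mean was passed by 8 of the 9, Myh2 lying just above it at 1.01 FPKM and Nppa below it.

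**Figure D1:**
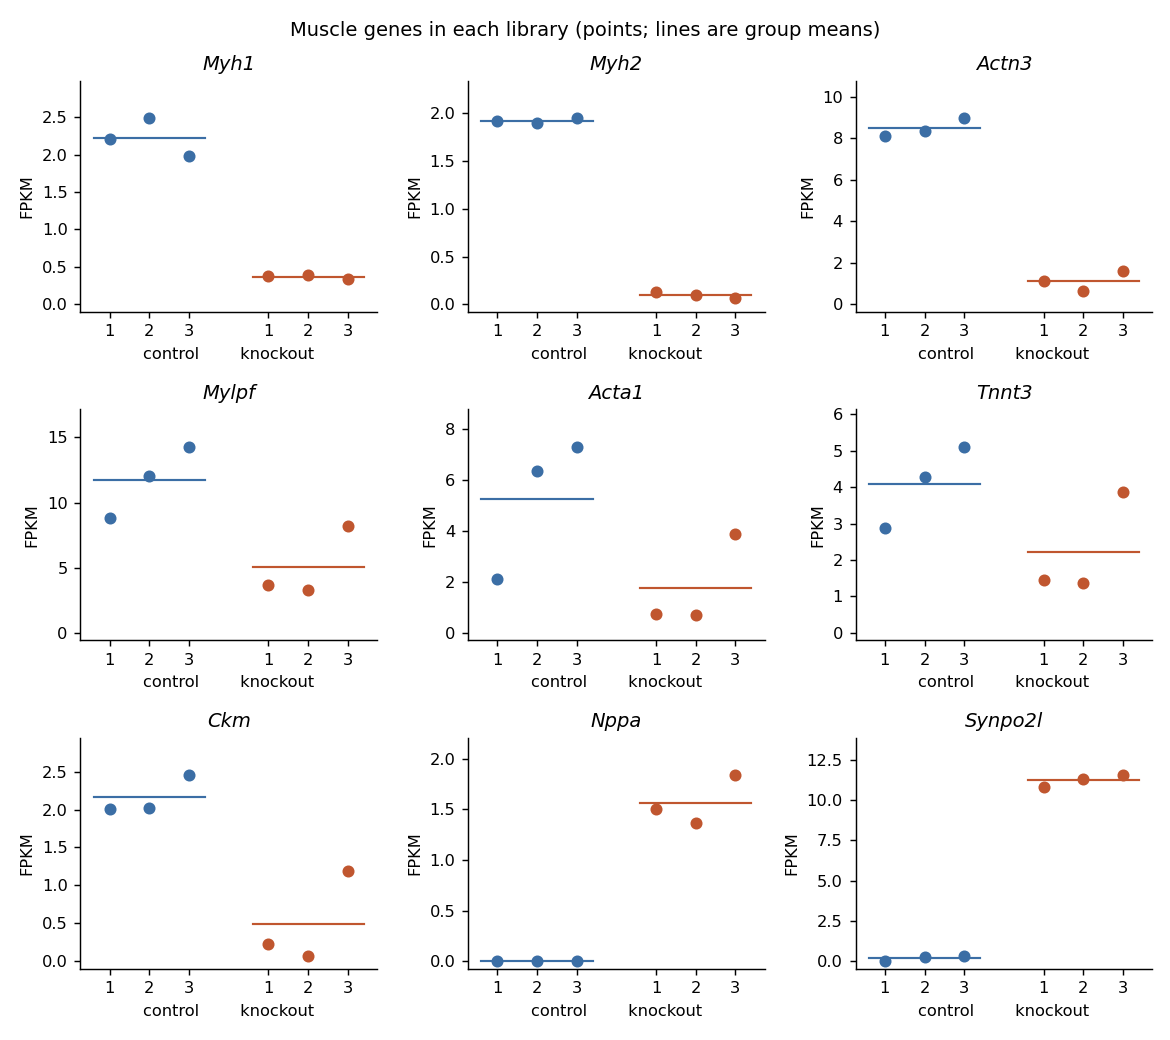
FPKM of the 9 muscle genes in each of the 3 control (blue) and 3 knockout (orange) libraries, with lines at the group means and a separate linear axis for each gene. The controls of Myh2 and Actn3 lie close together, Acta1, Tnnt3, Mylpf and Ckm are highest among the knockouts in knockout 3, and Nppa and Synpo2l are near 0 in the controls.

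The myosin heavy chain genes Myh1 and Myh2 encode the motors of fast IIx and IIa fibres. Myh2 (chromosome 11, 67171027 to 67197517, GRCm38) measured 1.92, 1.89 and 1.94 FPKM in controls 1, 2 and 3, and 0.125, 0.101 and 0.0618 FPKM in knockouts 1, 2 and 3. The controls were nearly equal, with a coefficient of variation of 1.35%, and every knockout was far below them. These values rest on 130, 184 and 168 reads in the controls and on 11, 8 and 5 reads in the knockouts, so that exact 95% Poisson intervals in the knockouts ran from 0.0201 to 0.224 FPKM in all. They cover counting error only. The mean was 20.0-fold lower in the knockouts, 1.92 ± 0.0259 against 0.0961 ± 0.0320 FPKM.

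Myh1, which lies 2.53 kb beyond Myh2 on the same strand (chromosome 11, 67200052 to 67224575), measured 2.21, 2.48 and 1.98 FPKM in the controls and 0.383, 0.399 and 0.333 FPKM in the knockouts. The groups did not overlap. The mean was 5.98-fold lower, 2.22 ± 0.254 against 0.372 ± 0.0343 FPKM. Knockout 3 was the lowest of the knockouts in both genes, at 0.852 of the mean of the other 2 for Myh1 and 0.546 for Myh2. The transcripts of these genes are alike: 15.8% of the 75-base windows of Myh1 and 13.9% of those of Myh2 occur in another gene, 755 of them in both. How the authors treated reads that match several genes is not given in the sources used here, so the split of reads between these paralogs is uncertain.

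The stretches before the starts of Myh2 and Myh1 are shown because the genes are neighbours and lower together. Each has 250 bases ending just before the start that RefSeq annotates (build GRCm38.p6), written 5′ to 3′ on the gene's strand. Capitals mark matches on either strand to 5 motifs, here and in the promoters printed further on: the TEAD site GGAATG, the E-box CAGCTG bound by myogenic factors, the TATA box TATAAA, and the CArG box of SRF and the MEF2 site.
Myh2, chr11:67170777-67171026, plus strand: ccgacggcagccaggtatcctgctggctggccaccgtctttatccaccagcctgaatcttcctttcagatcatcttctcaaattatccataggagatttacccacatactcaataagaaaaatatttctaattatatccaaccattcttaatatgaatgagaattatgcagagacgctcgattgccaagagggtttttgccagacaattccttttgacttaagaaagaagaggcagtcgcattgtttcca
Myh1, chr11:67199852-67200101, plus strand: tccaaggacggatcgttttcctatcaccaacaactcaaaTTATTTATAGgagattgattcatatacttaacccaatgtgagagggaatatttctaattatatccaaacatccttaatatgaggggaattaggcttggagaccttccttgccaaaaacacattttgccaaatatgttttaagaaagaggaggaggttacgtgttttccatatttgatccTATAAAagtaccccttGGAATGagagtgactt
Myh1 held a MEF2 match at -211 to -202 from the RefSeq start, a TATA match at -32 to -27 and a TEAD match at -16 to -11. A TATA match on the minus strand, at -208 to -203, lies inside the MEF2 match. The deposited table starts Myh1 at 67200052, before the RefSeq start. The matches at -32 to -27 and -16 to -11 therefore lie inside the gene as listed there. In the Myh2 window none of the 5 was found. Such a match is a description of letters, not a binding site.

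The same stretch of chromosome 11 holds 4 further sarcomeric myosin genes, Myh3, Myh4, Myh8 and Myh13. Myh3, the embryonic heavy chain gene, measured 3.91, 4.0 and 3.36 FPKM in the controls and 0.362, 0.284 and 0.612 FPKM in the knockouts. It fell 8.96-fold (limma adjusted p = 2.64e-06). The remaining genes of the cluster were below the filter and were not tested. Myh4, the gene of the fastest IIb fibres, averaged 0.789 ± 0.460 against 0.0842 ± 0.0620 FPKM, with control 3 at 1.32 FPKM and the other controls at 0.560 and 0.488 FPKM. Myh8, the perinatal gene, averaged 1.23 ± 0.0737 against 0.257 ± 0.197 FPKM. Myh13, the extraocular gene, averaged 1.61 ± 0.227 against 0.148 ± 0.119 FPKM. All 6 genes of the cluster had a lower mean in the knockouts, and in none of them did the groups overlap. Only genes that reached 1 FPKM in at least 1 library are listed, and these 6 reached it in controls alone. For genes as low as Myh4, Myh8 and Myh13 that rule favours lower knockout values, so nothing is read from this count. Of all listed genes, 38.7% were lower without overlap, and of those under the filter 65.7% were. Myh6 and Myh7, the cardiac alpha and beta heavy chain genes on another chromosome, fell as well, 8.19-fold from 3.68 ± 0.406 to 0.450 ± 0.0161 FPKM (limma adjusted p = 1.16e-06) and 7.56-fold from 3.19 ± 0.148 to 0.422 ± 0.0479 FPKM (limma adjusted p = 1.18e-06).

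**Figure D2:**
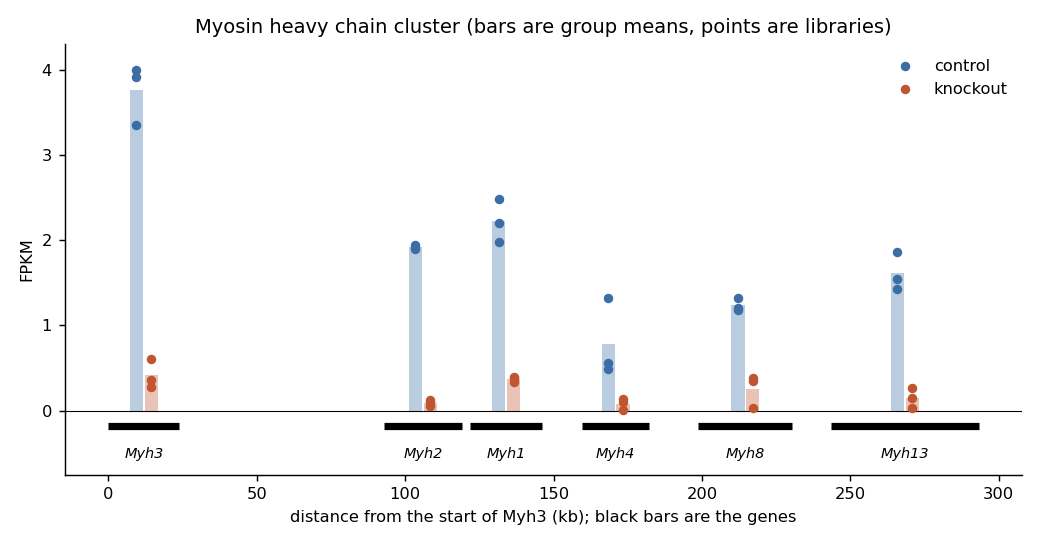
FPKM (linear axis) of the 6 sarcomeric myosin heavy chain genes of the chromosome 11 cluster, placed by distance in kb from the start of Myh3, with bars at the means of 3 control (blue) and 3 knockout (orange) libraries and points for the libraries. In every one of the 6 genes all control points lie above all knockout points, and Myh3 has the highest control mean, 3.76 FPKM.

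Actn3 (chromosome 19, 4861223 to 4877909, minus strand) measured 8.12, 8.37 and 8.96 FPKM in the controls and 1.15, 0.626 and 1.59 FPKM in the knockouts. The controls were close to each other, with a coefficient of variation of 5.11%, and the lowest of them was 5.12 times knockout 3. The mean was 7.57-fold lower, 8.48 ± 0.433 against 1.12 ± 0.480 FPKM. Alpha-actinins crosslink actin, and the family has sarcomeric and non-muscle members. Actn2, the other sarcomeric one, averaged 1.24 ± 0.568 against 0.704 ± 0.191 FPKM and was below the filter. The non-muscle Actn1 rose 2.64-fold, from 29.7 ± 0.501 to 78.4 ± 4.24 FPKM (limma adjusted p = 7.43e-08). Actn4, also non-muscle, rose 1.91-fold from 31.998 ± 1.14 to 61.2 ± 1.74 FPKM (limma adjusted p = 3.53e-07). Both sarcomeric actinins, with the lower means in the knockouts, were thus minor ones in either group on this per-length scale, and the abundant non-muscle ones were higher in the knockouts.

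The remaining 4 lower genes differed more between libraries of one group. Acta1 (chromosome 8, 123891767 to 123894736, minus strand) measured 2.13, 6.35 and 7.32 FPKM in controls 1, 2 and 3, and 0.736, 0.695 and 3.88 FPKM in knockouts 1, 2 and 3. Control 1 was the low control and knockout 3 the high knockout, and knockout 3 exceeded control 1. The counting intervals of these 2 libraries just overlapped, at 1.43 to 3.06 FPKM from 29 reads in control 1 and 2.98 to 4.96 FPKM from 63 reads in knockout 3, while those of knockouts 1 and 2 ended at 1.26 and 1.24 FPKM. The mean was 2.98-fold lower, 5.27 ± 2.76 against 1.77 ± 1.83 FPKM, and 7.36-fold lower without knockout 3.

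Tnnt3 (chromosome 7, 142498836 to 142516009), whose product binds troponin to tropomyosin in fast fibres, measured 2.88, 4.28 and 5.11 FPKM in the controls and 1.46, 1.37 and 3.87 FPKM in the knockouts. Again control 1 was the lowest control and knockout 3 lay within the control range. The mean was 1.83-fold lower, 4.09 ± 1.13 against 2.23 ± 1.42 FPKM, and 2.89-fold lower without knockout 3. Mylpf (chromosome 7, 127211608 to 127214298), the light chain of fast fibres and the highest of the 9 genes, measured 8.81, 12.03 and 14.3 FPKM against 3.67, 3.27 and 8.17 FPKM. Its groups stayed apart by a narrow margin, control 1 being 1.08 times knockout 3. The mean was 2.32-fold lower, 11.7 ± 2.75 against 5.04 ± 2.72 FPKM, and 3.37-fold lower without knockout 3.

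Ckm (chromosome 7, 19411094 to 19421583) measured 2.01, 2.02 and 2.45 FPKM in the controls and 0.229, 0.0640 and 1.18 FPKM in the knockouts. The controls were close together and the knockouts were not. The knockout values rest on 4, 1 and 19 reads, and the exact Poisson interval of knockout 3, 0.713 to 1.85 FPKM, lies above that of knockout 1, which ends at 0.587 FPKM. The mean was 4.39-fold lower, 2.16 ± 0.251 against 0.493 ± 0.605 FPKM, and 14.7-fold lower without knockout 3.

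The promoter of Acta1 is printed because it alone among those matched holds the CArG box as well as the TEAD letters. It comes from the same RefSeq table, with the same marking.
Acta1, chr8:123894776-123895025, minus strand: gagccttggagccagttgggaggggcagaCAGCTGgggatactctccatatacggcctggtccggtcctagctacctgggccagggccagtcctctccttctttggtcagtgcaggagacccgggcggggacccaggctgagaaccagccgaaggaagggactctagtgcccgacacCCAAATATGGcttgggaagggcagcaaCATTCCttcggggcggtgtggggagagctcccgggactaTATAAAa
In it the E-box lay at -221 to -216, the CArG box at -73 to -64, the TEAD letters on the minus strand at -46 to -41 and the TATA letters at -7 to -2. The RefSeq start lies upstream of the gene's end in the deposited table, which is the start of this minus-strand gene there.

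Looked at library by library, the 9 genes did not share one order. The 9 genes summed to 28.1, 37.7 and 42.4 FPKM in controls 1, 2 and 3, which makes 26.0%, 34.8% and 39.2% of the control total. The sum of Acta1, Ckm, Tnnt3 and Mylpf was 15.8, 24.7 and 29.2 FPKM in the controls and 6.09, 5.40 and 17.1 FPKM in the knockouts. The sum of Myh1 and Myh2 was flat instead, 4.13, 4.38 and 3.92 FPKM in the controls and 0.508, 0.500 and 0.395 FPKM in the knockouts. Control 3 was 3.43 times control 1 for Acta1, 1.77 times for Tnnt3 and 1.62 times for Mylpf, but 1.22 times for Ckm, 1.10 times for Actn3, 1.01 times for Myh2 and 0.896 times for Myh1. It was 7.06 times for Synpo2l, whose control levels rest on few reads. Knockout 3 was 8.08 times the mean of the other knockouts for Ckm, 5.42 times for Acta1, 2.74 times for Tnnt3, 2.36 times for Mylpf and 1.79 times for Actn3, against 1.28 times for Nppa and 1.04 times for Synpo2l. The genes that differed most between controls 1 and 3 were thus not wholly those high in knockout 3: Synpo2l belonged to the former and Ckm to the latter.

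In the whole table, 39 of 14998 genes, or 0.260%, were at least 2 times as high in knockout 3 as in each other knockout and at least 1 FPKM there. They included 4 of the 9 genes, Acta1, Ckm, Tnnt3 and Mylpf. Of the other striated muscle genes listed, 3 were among them, Tnnc2 (fast troponin C), Actc1 (cardiac alpha-actin) and Myl1 (fast essential light chain). A further 12 were genes of a list of liver products, such as Alb, Afp and Ahsg, which was drawn up after this library had been seen to stand apart. Of 18 liver genes, 16 were measured. They summed to 64.8, 185 and 89.0 FPKM in the controls and 29.98, 10.2 and 85.0 FPKM in the knockouts. None was at 0 in all libraries, as holds for every listed gene. Knockout 3 was the highest knockout for 15 of these 16. Control 2, the control highest for the liver sum, was not the control highest for the 4 muscle genes, which was control 3. The part of this liver signal in the muscle gene values was not tested. Without control 2 and knockout 3 together, a choice made after the values were seen, 68 of the other striated muscle list genes passed the test against 77 with all libraries, and over all genes 7985 passed against 9492.

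**Figure D3:**
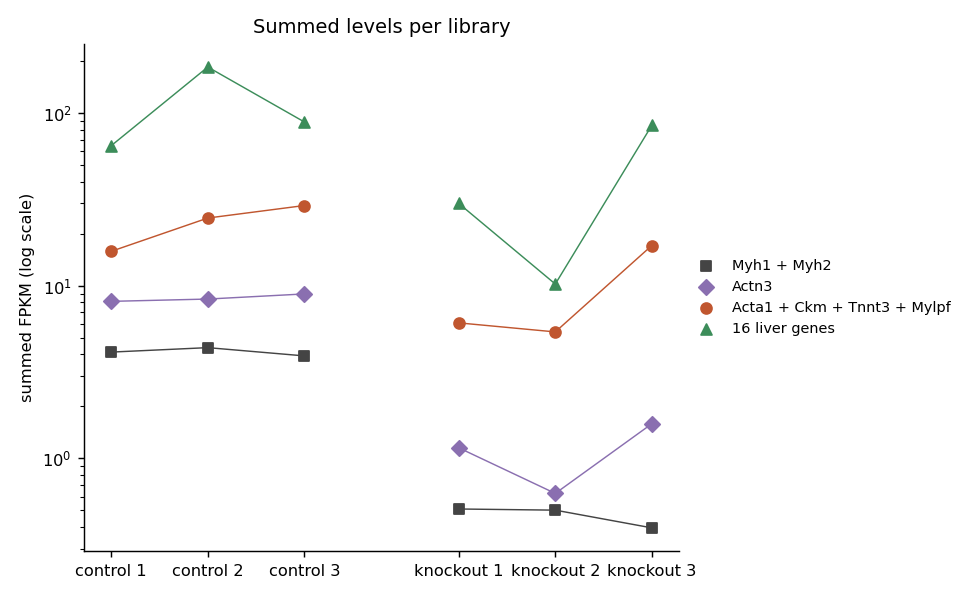
Summed FPKM (log scale) in each library for Myh1 plus Myh2 (squares), Actn3 (diamonds), Acta1 plus Ckm plus Tnnt3 plus Mylpf (circles) and 16 liver genes (triangles); lines only join points of one sum. Knockout 3 is above the other knockouts in the circles (17.1 FPKM) and triangles (85.0 FPKM) and not in the squares (0.395 FPKM), and control 2 has the highest triangle (185 FPKM).

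The paralogs of the contractile genes did not all follow them. Of the troponins, Tnnc1, the slow and cardiac troponin C gene, measured 5.67, 6.42 and 5.79 FPKM in the controls and 63.6, 63.1 and 63.4 FPKM in the knockouts. It rose 10.6-fold (limma adjusted p = 1.6e-09). Tnnc2, its fast skeletal counterpart, measured 5.66, 5.97 and 9.09 FPKM in the controls and 1.12, 0.339 and 4.19 FPKM in the knockouts, with knockout 3 again the highest knockout. It fell 3.67-fold (limma adjusted p = 0.00722), and 9.49-fold with knockout 3 left out. Tnni3, the cardiac inhibitory subunit gene, fell 9.21-fold from 15.9 ± 0.587 to 1.73 ± 0.480 FPKM (limma adjusted p = 2.41e-07), and knockout 3, at 1.56 FPKM, did not stand apart there. Tnni2, the fast inhibitory subunit gene, did not pass, at 2.51 ± 0.748 and 2.497 ± 0.627 FPKM (limma adjusted p = 0.985). The slow Tnni1 was 5.55 ± 1.82 against 3.02 ± 1.48 FPKM (limma adjusted p = 0.0425), and the cardiac Tnnt2 was 2.38 ± 1.39 against 5.15 ± 1.73 FPKM (limma adjusted p = 0.0221). The Tnni1 call was lost without control 2, control 3, knockout 1 or knockout 3 (limma adjusted p of 0.112 to 0.133). The Tnnt2 call was lost without control 1, control 2, knockout 1 or knockout 3 (limma adjusted p of 0.0644 to 0.0847), and without control 3 its mean was 3.25-fold higher in the knockouts against 2.16-fold with it. The slow Tnnt1 was 8.59 ± 1.16 against 6.67 ± 0.525 FPKM (limma adjusted p = 0.0156, and 0.0558 without knockout 1). Of the 3 troponin T genes, only the fast Tnnt3 was among the 9.

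Among the actins, Actc1, the cardiac isoform, measured 2.41, 4.40 and 6.79 FPKM in the controls and 1.45, 1.62 and 5.13 FPKM in the knockouts. As for Acta1, control 1 was the lowest control and knockout 3 the highest knockout. It did not pass (limma adjusted p = 0.18, and 0.0150 without knockout 3). Acta2, the smooth muscle alpha-actin of myoid cells, rose 1.25-fold from 76.3 ± 5.26 to 95.4 ± 6.06 FPKM (limma adjusted p = 0.00227). Actg2, the smooth muscle gamma-actin, was 7.93 ± 0.809 and 7.998 ± 1.11 FPKM and did not pass (limma adjusted p = 0.957). The cytoplasmic Actb rose 1.54-fold from 113 ± 6.11 to 174 ± 9.17 FPKM (limma adjusted p = 2.95e-05). Per length, Acta1 was a small part of the actin transcripts in both groups.

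Of the creatine kinases, which move phosphate between creatine and ATP, Ckb, the brain-type cytosolic one, rose 2.25-fold from 12.1 ± 0.598 to 27.4 ± 1.27 FPKM (limma adjusted p = 3.36e-07). Ckmt1, the ubiquitous mitochondrial one, measured 2.66, 1.76 and 1.65 FPKM in the controls and 0.228, 0.109 and 0.141 FPKM in the knockouts. It fell 12.7-fold (limma adjusted p = 3.67e-05). Only its controls reached 1 FPKM. For a gene this low the listing rule and the filter favour lower knockout values. In both groups the level of Ckb was above that of Ckm.

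**Figure D4:**
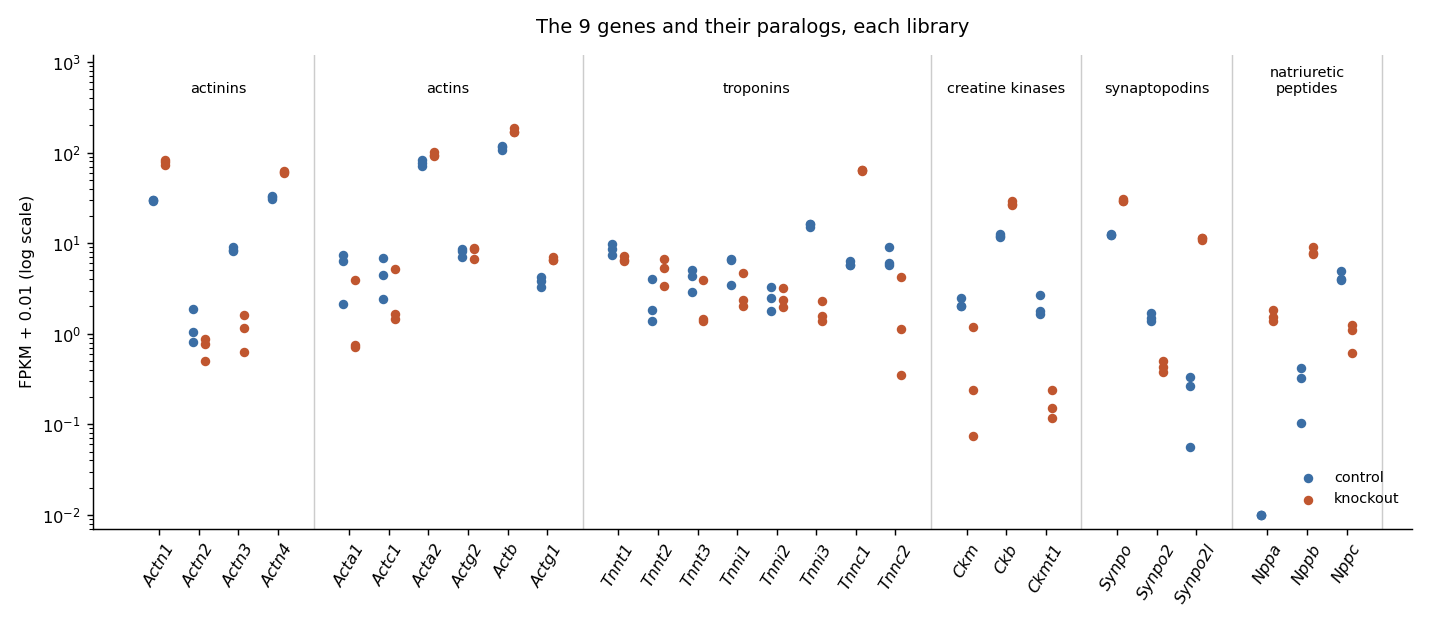
FPKM plus 0.01 (log scale) of the described genes and their paralogs, 3 control (blue) and 3 knockout (orange) libraries per gene. Within each family some genes are higher and some lower in the knockouts: Actn1 and Actn4 against Actn3, Tnnc1 against Tnnc2 and Tnni3, Ckb against Ckm and Ckmt1, Synpo against Synpo2, and Nppa and Nppb against Nppc.

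The natriuretic peptide gene Nppa (chromosome 4, 148000722 to 148002079) was listed at 0 FPKM in all 3 controls and at 1.501, 1.36 and 1.84 FPKM in the knockouts. The knockout values rest on 16, 13 and 18 reads, and the mean was 1.57 ± 0.244 FPKM. A count of 0 allows up to 3 reads per library, which for Nppa comes to 0.255 to 0.365 FPKM. Against the mean of that floor, 0.302 FPKM, the knockout mean was 5.18-fold higher. This ratio leaves out the counting error of the knockouts and is not a lower bound. The exact two-sided 95% Poisson intervals started at 0.724 to 1.09 FPKM in the knockouts and ended at 0.313 to 0.449 FPKM in the controls. Of its exon bases, 61.5% lie under exons of the antisense gene Gm13054, and the strand setting of the authors' counting is not given in the sources used here, so reads of the antisense gene cannot be told apart from those of Nppa in that stretch.

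Nppb, the gene of B-type natriuretic peptide, lies 13.5 kb before Nppa on the same strand. It measured 0.405, 0.0940 and 0.317 FPKM in the controls and 9.04, 7.77 and 7.57 FPKM in the knockouts. It rose 29.9-fold (limma adjusted p = 1.81e-07). Nppc, the gene of C-type natriuretic peptide, fell 4.34-fold from 4.28 ± 0.558 to 0.985 ± 0.334 FPKM (limma adjusted p = 2.92e-05). Of the receptors, Npr1, which binds the atrial and B-type peptides, fell 1.80-fold from 20.5 ± 1.56 to 11.4 ± 0.599 FPKM (limma adjusted p = 6.93e-06). Npr2, which binds the C-type peptide, rose 1.31-fold from 10.3 ± 0.289 to 13.4 ± 0.868 FPKM (limma adjusted p = 0.000511). Npr3, the clearance receptor, did not pass, at 8.88 ± 0.857 and 9.35 ± 0.137 FPKM (limma adjusted p = 0.386). Of the proteases that cut the prohormones, Furin rose 1.51-fold from 6.09 ± 0.143 to 9.19 ± 0.920 FPKM (limma adjusted p = 0.000235), while Corin averaged 1.08 ± 0.109 and 0.626 ± 0.0955 FPKM and was below the filter. Nppa and Nppb thus had higher means in the knockouts, while their receptor Npr1 and the third peptide gene, Nppc, had lower ones.

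Synpo2l (chromosome 14, 20658946 to 20668354, minus strand) measured 0.0455, 0.254 and 0.321 FPKM in the controls and 10.8, 11.3 and 11.5 FPKM in the knockouts. The knockouts were close to each other, with a coefficient of variation of 3.43%, and all were far above the controls. These values rest on 2, 16 and 18 reads in the controls and 615, 578 and 605 reads in the knockouts. The mean was 54.2-fold higher, 0.207 ± 0.144 against 11.2 ± 0.384 FPKM, which makes it the largest difference among the 9 genes with a measured ratio. Control 1 was again the low control, its interval ending at 0.164 FPKM. In its family, Synpo, the synaptopodin gene, rose 2.39-fold from 12.5 ± 0.264 to 29.9 ± 0.927 FPKM (limma adjusted p = 7.4e-08). Synpo2, which encodes myopodin, averaged 1.51 ± 0.147 and 0.427 ± 0.0631 FPKM and was below the filter. The next gene, Myoz1, a Z disc protein gene 2.41 kb away, did not pass, at 1.55 ± 0.594 and 1.18 ± 0.135 FPKM (limma adjusted p = 0.277).

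The promoters of these 2 genes, both higher in the knockouts, are shown for comparison with those of the lower genes. Synpo2l has 2 annotated starts. Source, build and marking are as above.
Nppa, chr4:148000472-148000721, plus strand: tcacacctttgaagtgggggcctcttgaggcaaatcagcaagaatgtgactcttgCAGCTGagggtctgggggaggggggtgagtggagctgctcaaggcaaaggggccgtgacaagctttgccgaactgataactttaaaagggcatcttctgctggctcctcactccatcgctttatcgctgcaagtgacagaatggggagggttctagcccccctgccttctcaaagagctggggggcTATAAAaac
Synpo2l, chr14:20668355-20668604, minus strand: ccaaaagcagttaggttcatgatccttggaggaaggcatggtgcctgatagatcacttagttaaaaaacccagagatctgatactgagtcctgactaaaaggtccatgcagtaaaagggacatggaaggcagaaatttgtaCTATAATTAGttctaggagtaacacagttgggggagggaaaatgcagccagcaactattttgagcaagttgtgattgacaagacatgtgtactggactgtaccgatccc
Synpo2l, chr14:20664575-20664824, minus strand: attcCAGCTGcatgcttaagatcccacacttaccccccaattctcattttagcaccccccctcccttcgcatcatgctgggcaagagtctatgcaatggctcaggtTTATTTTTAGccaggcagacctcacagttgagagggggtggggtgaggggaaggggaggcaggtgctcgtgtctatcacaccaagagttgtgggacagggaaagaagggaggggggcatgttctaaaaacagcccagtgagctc
Nppa held the E-box at -195 to -190 and the TATA letters at -9 to -4. Each Synpo2l window held a MEF2 match, at -109 to -100 and at -144 to -135, and the second also an E-box at -246 to -241. Neither gene held the TEAD letters GGAATG in these windows, while those of Nppb did at -105 to -100, as did those of Tnnc1 at -58 to -53.

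Promoters of 7 of the 9 genes were found in the RefSeq table, Actn3 and Tnnt3 being the exceptions, and they came to 8 windows. The TEAD letters stood in the windows of Acta1 and Myh1, and in 12.6% of 32851 windows of the same length over all genes. The E-box stood in windows of 5 of the 7 genes, Acta1, Ckm, Mylpf, Nppa and Synpo2l, and in 13.0% of all windows. The TATA letters stood in Acta1, Myh1 and Nppa and in 12.4% of all windows. A MEF2 match stood in Myh1 and Synpo2l and in 2.92% of all windows, and a CArG box in Acta1 and in 1.47% of all windows. No single motif was found in all 7 genes, nor in both Myh1 and Myh2. These shares describe letters, and a motif missing from a window says nothing about the factor.

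The wider set of striated muscle genes was counted in 7 lists of textbook members, leaving out the 9. Of 167 names 117 were in the table and 92 passed the filter. Of these 92, 40 rose, 37 fell and 15 did not pass limma's test at an adjusted p of 0.05, with a median log2 difference of -0.03 on log2(FPKM + 1). Over all 13778 genes tested, 68.9% passed, 35.2% higher and 33.7% lower, with a median of 0.01. In the lists 83.7% passed, 43.5% higher and 40.2% lower. Both list shares were above those over all genes, a difference that was not tested. A further 25 list genes were under 1 FPKM on average, and 19 of them, or 76.0%, were lower in every knockout than in every control. Of all 1220 genes under that filter, 802 were, or 65.7%. Knockout 3 was the highest knockout for 42 of the 117 genes, or 35.9%, against 38.5% of all genes, and for 7 of the 9 genes.

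The thick filament list, which includes Myh3, Myh6 and Myh7 from above, split as well. Of its 11 genes tested, those 3 included, 7 fell, 3 rose and 1, Myl1, did not pass (median -0.78). Mylk3, the cardiac myosin light chain kinase gene, rose 4.71-fold from 2.38 ± 0.425 to 11.2 ± 1.46 FPKM (limma adjusted p = 1.9e-06). Mybpc3, cardiac myosin binding protein C, rose 1.40-fold from 19.8 ± 3.27 to 27.8 ± 3.17 FPKM (limma adjusted p = 0.0054). Myl7, the atrial light chain gene, was 4.71 ± 0.332 against 3.81 ± 0.487 FPKM (limma adjusted p = 0.0367), a call lost without any one of controls 1 and 2 and knockouts 1 and 2, at up to 0.120. Myl1 was 1.78 ± 0.679 against 0.832 ± 0.856 FPKM (limma adjusted p = 0.0807, and 0.00441 without knockout 3).

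Of 15 thin filament genes, 5 rose and 7 fell, with a median log2 difference of -0.32, and 3 did not pass. Nrap, an anchor of thin filaments at the cell membrane, fell 9.18-fold from 11.9 ± 1.66 to 1.30 ± 0.0820 FPKM (limma adjusted p = 1.54e-07). Tpm1, a tropomyosin gene that non-muscle cells also use, rose 2.12-fold from 43.0 ± 1.67 to 91.3 ± 2.69 FPKM (limma adjusted p = 2.05e-07). Tpm2 rose 1.14-fold from 21.1 ± 1.02 to 24.1 ± 1.62 FPKM (limma adjusted p = 0.0198), a call lost without control 2, knockout 2 or knockout 3, at up to 0.0786. Of 19 Z disc and costamere genes, 9 rose and 5 fell (median 0.30), and 5 did not pass. Cryab, a small heat shock protein gene, rose 4.53-fold from 14.2 ± 0.580 to 64.2 ± 1.22 FPKM (limma adjusted p = 6.94e-09). Fhl1, a LIM domain gene, rose 2.36-fold from 14.8 ± 1.07 to 34.97 ± 1.57 FPKM (limma adjusted p = 4.65e-07). Pdlim3, an actinin-binding protein gene, fell 1.60-fold from 88.1 ± 10.3 to 55.2 ± 1.95 FPKM (limma adjusted p = 9.72e-05).

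Of 14 excitation-contraction genes, 4 rose and 7 fell (median -0.23), and 3 did not pass. Chrnb1, a subunit gene of the muscle acetylcholine receptor, rose 4.19-fold from 6.45 ± 0.587 to 27.0 ± 1.73 FPKM (limma adjusted p = 1.05e-07). Casq1, the calcium store protein of fast fibres, fell 6.12-fold from 4.34 ± 0.417 to 0.708 ± 0.106 FPKM (limma adjusted p = 1.38e-06). Casq2, its cardiac relative, fell 1.31-fold from 45.4 ± 4.73 to 34.8 ± 1.04 FPKM (limma adjusted p = 0.00161). Cacna1s, the voltage sensor of skeletal muscle, rose 2.35-fold from 1.97 ± 0.198 to 4.63 ± 0.271 FPKM (limma adjusted p = 1.78e-05). Atp2a2, a calcium pump gene that most cells use, did not pass, at 48.0 ± 2.13 and 50.98 ± 0.780 FPKM (limma adjusted p = 0.111, and 0.0281 without control 1).

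The list of energy supply genes, which also held the non-muscle actinins Actn1 and Actn4, had 7 of 14 higher, 6 lower and 1 not past (median 0.16). Of the glycolytic members, Aldoa rose 1.53-fold from 51.6 ± 2.21 to 79.2 ± 5.07 FPKM (limma adjusted p = 2.12e-05) and Ldha rose 1.75-fold from 40.3 ± 1.07 to 70.4 ± 3.87 FPKM (limma adjusted p = 1.89e-06). Of 9 genes tested in the list of transcription factors and other myogenic regulators, 6 rose and 2 fell (median 0.31), and Srf did not pass. Tead4 rose 6.14-fold from 1.61 ± 0.300 to 9.89 ± 0.685 FPKM (limma adjusted p = 3.78e-07), and Tead1 rose 2.03-fold from 18.6 ± 0.839 to 37.9 ± 1.10 FPKM (limma adjusted p = 3.12e-07). Both encode TEAD factors. Mef2a and Mef2c, which bind the MEF2 site, rose 1.32-fold (limma adjusted p = 8.33e-05) and 1.16-fold (limma adjusted p = 0.0112). Myog, the myogenin gene, was the one myogenic E-box factor of the list in the table. It measured 0.997, 1.29 and 2.51 FPKM in the controls and 0.549, 0.122 and 0.656 FPKM in the knockouts. Its mean fell 3.62-fold (limma adjusted p = 0.0106). The limit given for Ckmt1 holds here too, since only controls reached 1 FPKM. The cardiac and natriuretic list had 6 of 10 higher, 3 lower and 1 not past (median 0.30). For comparison, of 13 smooth muscle genes 5 rose and 4 fell (median 0.01), and 4 did not pass.

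**Figure D5:**
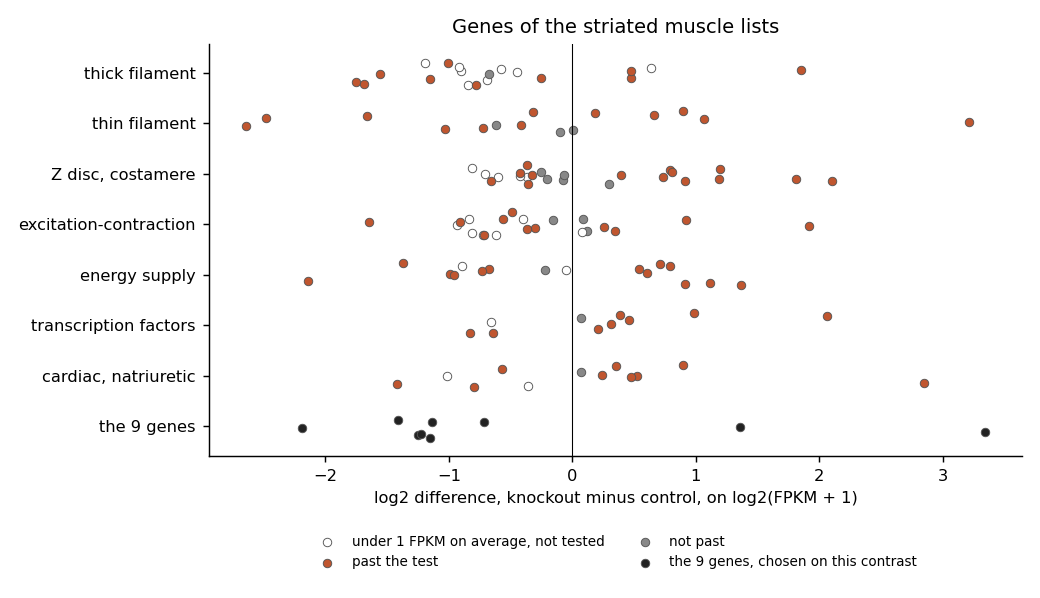
Log2 difference (knockout minus control, on log2(FPKM + 1)) of each measured gene in the 7 striated muscle lists and of the 9 described genes (bottom row); fill marks genes past limma's test (orange), not past it (grey), under 1 FPKM on average and not tested (white) or chosen on this contrast and not tested (black). Every list holds genes on both sides of 0, and 7 of the 9 genes lie to the left of it.

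Marker sums put the level of muscle transcripts in context. Over 10 of 12 skeletal muscle markers the sum was 27.2 to 36.5 FPKM in the controls and 12.2 to 17.7 FPKM in the knockouts. Over 9 cardiac markers it was 34.5 to 41.3 against 18.9 to 27.3 FPKM, and over 5 smooth muscle markers 143 to 168 against 205 to 229 FPKM. None of these sums stands for all its members. Of 6 skeletal markers tested, 4 fell, and Tnni2 and Myl1 did not pass. The other 4 measured were under the filter, where the listing rule favours lower knockout values. Of 8 cardiac markers tested, 5 fell and 2, Nppb and Tnnt2, rose. Tnni3 alone went from a mean of 15.9 to 1.73 FPKM. Of the 5 smooth muscle markers, Acta2 and Tagln rose, and Myh11 and Cnn1 fell. No measured marker of these lists was at 0 in all libraries, as holds for every listed gene. Markers of fat moved the same way as the skeletal sum: the 2 of 5 measured, Plin1 and Car3, summed to 12.5 to 13.9 FPKM in the controls and 3.76 to 4.74 FPKM in the knockouts. Plin1, a lipid droplet protein gene, averaged 10.6 ± 1.18 and 3.54 ± 0.458 FPKM. Car3, a carbonic anhydrase gene that slow muscle also expresses, measured 1.68, 4.53 and 2.30 FPKM in the controls and 0.269, 0.120 and 1.70 FPKM in the knockouts, and was one of the 39 genes high in knockout 3. Fabp4, a fatty acid carrier gene on the wider fat list, averaged 6.03 ± 2.42 and 14.7 ± 2.70 FPKM, the other way. The part of fat in the muscle gene values was not tested. The skeletal markers Ttn and Mb are not listed in the table, and it holds only genes that reached 1 FPKM in at least 1 library.

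The mean standardised level of the 9 was compared by Pearson correlation over the 6 libraries with 3009 genes having a log2 range of at least 1. Nppa and Synpo2l entered that mean unreversed, so it mostly follows the 7 lower genes. The genes named next all had lower means in the knockouts. Fam25c and Sln were at 0 FPKM in knockouts 1 and 2. The closest were Mageb16 (r = 0.981), Tnnc2 (r = 0.977), Fam25c (r = 0.976), Fam89a (r = 0.975) and Serpinf2 (r = 0.974), followed by Cox7b2, Hnf4a, Sln, Mt2 and Hspa1a, down to r = 0.953. Tnnc2 and Sln, the sarcolipin gene, are muscle genes, and Serpinf2 and Hnf4a are known for liver. The rest, with Mageb16 the closest of all, are on none of the lists used here, so no common class is read from these genes. These libraries share the 2 groups, so each r takes in the difference between the groups, and it is given as a description.

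Overlapping annotation limits some further values. Exons of antisense genes cover 15.5% of the exon bases of Ckm, 8.11% of those of Myh1 and 3.32% of those of Myh2, and the strand setting is not given in the sources used here. For Actn3, Acta1, Tnnt3, Mylpf and Synpo2l no other exon overlapped.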

How the data were processed

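RNA from whole testes was sequenced in 6 libraries, 3 control and 3 knockout. Reads were aligned with STAR, per the labels' protocols, and GRCm38 and DESeq2 1.22.2 are named in the submitters' processing notes. How reads were counted, with which strand setting and with what handling of multiple matches, is not given in the sources used here. Values are FPKM, deposited by the authors per library. Per the file headers, the authors' table also gives log2 group means and log2 fold changes, p-values and −log10 p-values from their own tests, none of which is reported here. No column of other samples was present (0).

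From the FPKM, log2(FPKM + 1) was computed for the 13778 genes averaging 1 FPKM or more over the 6 libraries and tested with limma 3.58.1 (R 4.3.3; intensity trend, two-sided, Benjamini-Hochberg over all genes tested, threshold 0.05), without a term for the replicate number. A fold change is the ratio of mean FPKM. Log2 differences use log2(FPKM + 1) and so understate changes of low genes. Where FPKM steps give whole reads (99.9933% of 14842 genes with a reference length, within 0.003 reads; 48.2% of genes with the reference length unchanged), those reads gave the totals, exact 95% Poisson intervals and a limma-voom alternative. The gene lengths recovered this way are estimates. Intervals and floors (3 reads) cover counting error only. On simulated counts for 3 against 3 libraries (13889 genes), the test recovered 88.1% of 1.5-fold, 97.0% of 2-fold and 100% of 4-fold changes, with 6.40% false calls. The simulation gave every gene the same small variation between libraries and changed 200 genes. In the data 68.9% of genes passed, and the knockout coefficient of variation was 103% for Acta1 and 123% for Ckm. The simulated rates do not carry over to genes that vary so much.

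The 9 genes and all lists were chosen with earlier results of these data known. The genes named from each list were the 3 with the highest mean and the 3 with the smallest p, and paralogs, neighbours and genes high in knockout 3 were added after their values were seen. Lists of adipose, nerve, epididymis, adrenal and erythroid genes were also summed. Adipose genes (3 of 10 measured) summed to 16.6 to 22.6 FPKM in the controls and 15.8 to 20.5 in the knockouts, with members moving in opposite directions, nerve genes (6 of 8) to 24.0 to 30.4 and 21.9 to 22.5, epididymal genes (5 of 14) to 8.97 to 10.5 and 5.64 to 7.60, adrenal genes (6 of 9) to 59.5 to 65.9 and 51.5 to 62.3, and erythroid genes (4 of 6) to 72.8 to 89.5 and 82.7 to 96.2. Promoter sequences are from RefSeq (GRCm38.p6). Scripts used Python 3.11.15, pandas 2.3.3, scipy 1.17.1 and matplotlib 3.10.9.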

Additional observations from a re-analysis of the deposited data

How the results depend on the processing

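No called direction of a named gene reversed under any alternative run. With no filter on low values, 57 of the other striated muscle list genes were lower against 37, as were 5426 of all genes against 4642 (10434 past the test against 9492), and with a mean of at least 10 FPKM, 4780 genes passed (2954 higher, 1826 lower), of which 28 were list genes (21 higher, 7 lower), since fewer genes were tested. With a pseudocount of 0.1 FPKM the median difference of the 9 genes was -1.78 against -1.15, since the pseudocount damps low genes. Leaving out 1 library at a time gave 8719 to 9439 genes past the test (4318 to 5059 higher, 4281 to 4404 lower), 69 to 79 list genes (36 to 41 higher, 31 to 43 lower) and a median difference of the 9 genes of -1.39 to -0.95. A fit with the replicate number as a block gave 9359 genes and 78 list genes (40 higher, 38 lower). Over all genes tested, same-numbered libraries deviated from their group means with r = -0.007, -0.016 and 0.097, and differently numbered ones with -0.158 to 0.142. For Acta1, Ckm, Tnnt3 and Mylpf, control 3 and knockout 3 were each the highest of their group. With 3 libraries per group, these correlations cannot decide whether the numbers pair the libraries. limma-voom on recovered reads gave 9387 genes, and median-ratio scaling 9601, with 77 list genes each. Of 594 pairs of a named gene and an alternative, 564 kept their call, 22 lost and 8 gained it, all in 8 genes: Myl1, Myl7, Actc1, Tnnt1, Tnnt2, Tnni1, Tpm2 and Atp2a2. In the block fit the adjusted p was 0.0104 for Myl1, 0.00561 for Actc1 and 0.0622 for Myl7; why was not tested. Low counts limit Myh2, Ckm and Nppa most.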
